A study of Zea mays with 2182 samples.

Results

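In cells from maize anthers of 2.5 to 3.0 mm, 0.592% of the 21774 rows that carry a gene ID (22173 rows in all) peaked above every shorter length window. By the class of late cells in which they were highest, described further on, they fall into groups of 21, 59 and 49 members. These values chose the members. The rule summed the UMIs (unique molecular identifiers, each a captured transcript) of all analysed cells of an anther length, scaled them to CPM (UMIs of a row per 1000000 UMIs), averaged the lengths into 4 windows and added 5. Members were highest at 2.5-3.0 mm, reached at least 50 after the addition and stood at least 2.5 times above the next window. By the same limits 95 gene rows peaked at 0.5-1.0 mm, 70 at 1.25-1.75 mm and 60 at 2.0-2.25 mm.

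The study profiled single cells from anthers of the fertile inbred line W23 grown in a greenhouse, with no treatment, at 11 lengths between 0.5 and 3.0 mm. The design text gives at least 2 plants per length, but the labels do not name the plant of a cell, so the spread between sums is not a spread between plants. Anthers were fixed and digested, single cells were sorted into wells, and libraries were made by CEL-Seq2, a method that tags the 3' end of each polyadenylated transcript with a cell barcode and a UMI. Sample titles carry a leading tag, here called a set, and a number, and cells that share set, number and length are called a pool. All groups share the line and the growth conditions, and no mutant or treated group enters the comparisons.

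The wall of a maize anther has 4 cell layers around the germ cells: epidermis, endothecium, middle layer and tapetum. The endothecium carries chloroplasts. The tapetum feeds the developing pollen, and chalcone synthase, encoded by C2, opens the flavonoid pathway whose products end up on the pollen coat. No member has a gene symbol in the table or matched the RefSeq gene table, so members are given by ID and no role is assigned to them. Roles enter only through the named rows that were used to class cells.

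The analysis rested on 1589 of 2182 cells, those with at least 500 UMIs outside the sets and pools that the rule leaves out, and 20.7% of them came from the 3 longest lengths. Of these late cells 42.9%, with 370805 UMIs, were from 2.5 mm anthers, 38.3%, with 199775 UMIs, from 2.75 mm anthers, and 18.8%, or 62 cells with 97390 UMIs, from 3.0 mm anthers. The median was 1544, 1124.5 and 955.5 UMIs per cell. Of the 96 well numbers, all 96 occurred in at least 2 pools, so well barcodes repeat between pools. The 5 well numbers with most member UMIs held 27.0% of them at 2.5-3.0 mm, against 20.9% of all UMIs in the 5 well numbers with most UMIs.

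Members were mostly of modest level. Their mean over the 3 longest lengths had a median of 126.1 CPM and ran between 45.8 and 11579 CPM. In 53 members it was under 100 CPM and in 23 it was over 500 CPM. The median ratio to the next window was 3.95, and 22 members had a ratio of at least 10. Late UMIs per member had a median of 67 and a minimum of 18. No UMI was seen at 0.5-1.0 mm in 41 members, and none at any length below 2.5 mm in 7. The next highest window was 2.0-2.25 mm for 80 members, 1.25-1.75 mm for 24 and 0.5-1.0 mm for 25. Just inside the level limit were Zm00001d009762 and Zm00001d039249 at 45.8 and 46.7 CPM before the addition. Just outside it were Zm00001d018149 and Zm00001d019207 at 44.7 and 44.1 CPM. At the fold limit, Zm00001d037384 and Zm00001d044921 were inside with ratios of 2.50 and 2.53, and Zm00001d009763 and Zm00001d035871 outside with 2.46 and 2.45.

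The 3 late lengths did not share one pattern. The highest length was 3.0 mm for 73 members, 2.75 mm for 35 and 2.5 mm for 21. Without the 2 leading rows, members made up 0.125% of UMIs at 0.5 mm, 0.293% at 2.0 mm, 1.09% at 2.25 mm, 1.83% at 2.5 mm, 4.72% at 2.75 mm and 5.38% at 3.0 mm. Between pools of 2.5-3.0 mm with at least 8 cells the share ran between 0.580% and 10.0%, and between such pools of 2.25 mm it ran between 0.321% and 2.77%, so single late pools overlapped with shorter ones. The 3 smaller late pools, of 1 to 4 cells, held 1.22%, 7.26% and 21.1%.

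**Figure D1:**
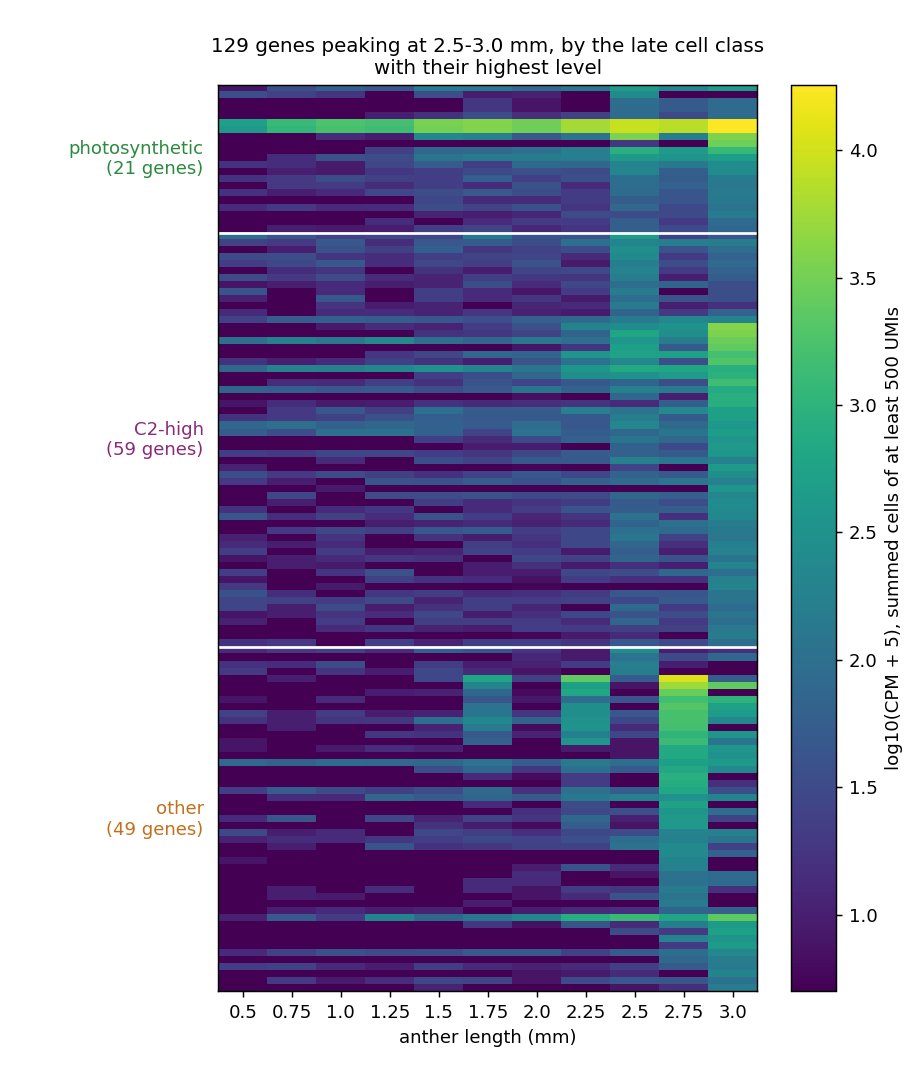
Level of all members (rows) at each anther length (columns, mm), as log10(CPM + 5) of summed cells with at least 500 UMIs; members are grouped by the class of late cells in which they were highest (21 photosynthetic, 59 C2-high, 49 other). Members highest in other cells are brightest at 2.75 mm and those highest in C2-high cells at 3.0 mm.

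Late cells were classed by rows that are not members. Photosynthetic cells had at least 0.3% of their UMIs, and at least 2, in CAB1, RBCS, PSAH and PSBQ1, which encode a chlorophyll-binding antenna protein, the small subunit of Rubisco and subunits of photosystems I and II. C2-high cells met the same limits for C2 alone. At 2.5-3.0 mm photosynthetic cells were 34.7%, C2-high cells 15.5% (51 cells) and other cells 46.8% of the cells, with median depths of 1348, 1967 and 1147.5 UMIs. The 10 cells past both limits were left out, and no doublet caller was run. At 2.0-2.25 mm the same classes were 22.3%, 8.75% and 68.7% of 457 cells, so a larger share of cells passed the limits among the longest anthers. The rows behind the limits were also higher there. From 2.0-2.25 mm to 2.5-3.0 mm RBCS went from 431 to 1283 CPM and C2 from 1692 to 3959 CPM. With a fixed limit, more such cells and a higher level per cell cannot be told apart. Of the late cells, 34 lay between 0.2% and 0.5% for the photosynthetic rows and 22 for C2.

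By summed CPM, 21 members were highest in photosynthetic cells, 59 in C2-high cells and 49 in other cells. The level in that class was at least 2 times the next class for 15, 46 and 46 of them. Each member was also followed over the windows within its own class. At 2.5-3.0 mm all 21 photosynthetic members were above the highest shorter window within that class, with a median ratio of 2.76. Of the C2-high members 51 of 59 were above it, with a median ratio of 2.43, and of the members highest in other cells 49 of 49, with a median ratio of 15.8. The ratio reached 2.5 within the class for 11, 29 and 49 members. Since the members were chosen for a high level at these lengths and the class for holding it, the direction is largely fixed by that choice, and the ratios are a description. They do not separate level from makeup, because the class of other cells is mixed: 27 late cells held 80.7% of the late UMIs of its 49 members.

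The 2 leading rows, Zm00001d000279 and GRMZM5G815453, belong to the photosynthetic group and cannot be told apart. Their counts were equal in 863 of the 1193 cells with either (72.3%), Pearson's r over cells was 0.999, and their totals were 15111 and 14637 UMIs, so they may share reads. At 0.5, 1.0, 1.5, 2.0 and 2.25 mm Zm00001d000279 had 509, 1781, 3415, 3033 and 5918 CPM, and at 2.5, 2.75 and 3.0 mm it had 9053, 7724 and 17959 CPM. Its level was thus already high among short anthers and climbed over most of the series. In the photosynthetic class it had 23106 CPM, in the C2-high class 4264 CPM and in other cells 1908 CPM, and 98.2% of the photosynthetic cells held a UMI of it. Per pool the photosynthetic cells held 14403 to 43444 CPM in 10 pools and the other cells 779 to 6071 CPM. The row was placed in its group by such class levels, so this is a description. In the fit given further on, 92.1% of all tested rows were called between these classes.

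Zm00001d011285 and Zm00001d018779 also followed the photosynthetic cells in nearly every pool. Zm00001d011285 had no UMI below 1.25 mm, 162.4 CPM at 2.25 mm, and 898, 415.5 and 1191 CPM at 2.5, 2.75 and 3.0 mm. It had 914 to 4089 CPM in the photosynthetic cells of 9 pools and 0 in the tenth, against 0 to 198.7 CPM in other cells. A UMI of it was found in 71.9% of the photosynthetic cells, 15.7% of the C2-high cells and 5.19% of the other cells. Zm00001d018779 was steadier over the 3 lengths, with 412.6, 340 and 483 CPM (411.9 ± 71.1 CPM, SD over 3 lengths). It had 600 to 1919 CPM in the photosynthetic cells of the same 9 pools, against 0 to 179.1 CPM in other cells. Both genes had 0 in the pool of set 1.4.21, number 2, at 2.5 mm, whose photosynthetic cells numbered 6.

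Zm00001d051194 had the highest ratio of all members, 199.7. It is 1 of 6 members whose late UMIs, among the 3 classes, lay in a single class. The share of all rows for which this holds was not computed, and rows of few UMIs meet it more easily. Zm00001d051194 had no UMI at any of the 8 lengths below 2.5 mm, where 3 counts would correspond to 2.11 to 17.5 CPM. It had 13.5 CPM at 2.5 mm, 0 at 2.75 mm and 2967 CPM at 3.0 mm (95% exact Poisson interval 2635 to 3330, counting error only). All of its UMIs lay in 16 photosynthetic cells of 3 pools, none in C2-high or other cells. The pools at 3.0 mm held 6092 CPM (set 8.18.21, number 10), 3768 CPM (set 1.4.21, number 4) and 0 CPM (set 3.29.22, number 1). The gene was thus at a high level in some 3.0 mm pools and not seen in another of 26 cells.

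**Figure D2:**
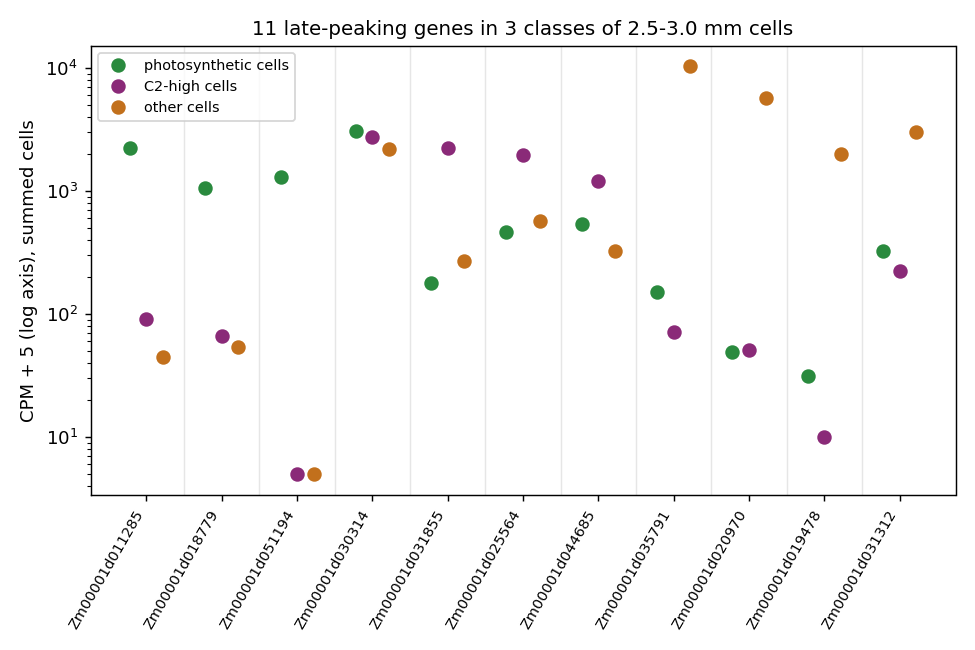
CPM + 5 on a log axis of 11 members in summed photosynthetic, C2-high and other cells of 2.5-3.0 mm anthers. Zm00001d051194 lies at 1306 CPM in photosynthetic cells and at 0 in both other classes, Zm00001d031855 at 2256 CPM in C2-high cells, and Zm00001d035791 at 10330 CPM in other cells.

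The C2-high group was the largest and peaked at 3.0 mm in 46 of its 59 members. Zm00001d031855 had at most 33.1 CPM up to 2.0 mm, 198.9 CPM at 2.25 mm, and 266.99, 325.4 and 3933 CPM at 2.5, 2.75 and 3.0 mm. Zm00001d025564 had at most 64.9 CPM below 2.5 mm and then 601, 285.3 and 3532 CPM. Zm00001d044685 had at most 12.2 CPM below 2.5 mm and then 507, 45.1 and 2413 CPM. Of the C2-high cells 54.9%, 66.7% and 23.5% held a UMI of these genes, of the photosynthetic cells 7.89%, 11.4% and 2.63%, and of the other cells 11.7%, 17.5% and 5.19%. In all 6 pools with a C2-high sum, Zm00001d031855 and Zm00001d025564 were higher in the C2-high cells than in the other cells of the same pool. The C2-high cells held 201.7 to 18409 CPM of Zm00001d031855 and 366.8 to 14790 CPM of Zm00001d025564.

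One 3.0 mm cell weighed heavily on this group. The deepest cell of that length, in set 8.18.21, number 10, had 15724 UMIs, which is 16.1% of the UMIs of its length, and the next had 7575. Members made up 12.8% of its UMIs, 41 members had more UMIs in it than in any other late cell, and 1.42% of them were of C2 and 0 of the 4 photosynthetic rows. In 12 members a single cell held over 50% of the late UMIs, and in 9 of these it was this cell. Without it, the 3.0 mm level was 1200 CPM for Zm00001d031855, 1506 CPM for Zm00001d025564, 1163 CPM for Zm00001d044685 and 992 CPM for Zm00001d003379, against 3933, 3532, 2413 and 2854 CPM with it. The rule then lost 29 members and gained 18. Zm00001d026336 and Zm00001d005434 had their UMIs in more pools: Zm00001d026336 was seen in 12 of 13 late pools, with 548, 531 and 1550 CPM over the 3 lengths. Without the deepest cell their 3.0 mm levels fell as well. Zm00001d026336 went from 1550 to 637 CPM and Zm00001d005434 from 955 to 563 CPM.

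Zm00001d017275 was the broadest of the group. It had 74.0 CPM at 0.5 mm, 369.4 CPM at 2.25 mm, and 723, 616 and 832 CPM at 2.5, 2.75 and 3.0 mm (723.4 ± 108.01 CPM, SD over 3 lengths). UMIs of it were found in 150 late cells and 12 pools, and no cell held more than 4.66% of them. Within the C2-high class it had 1095 CPM at 2.5-3.0 mm, and 1492 CPM among the 6 C2-high cells of 0.5-1.0 mm.

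Zm00001d030314 was not tied to 1 class, but it was concentrated in 1 cluster of late cells. It had 3606, 165.2 and 3686 CPM at 2.5, 2.75 and 3.0 mm and at most 221.5 CPM at any shorter length. Summed over pools it had 3079 CPM in photosynthetic cells, 2753 CPM in C2-high cells and 2189 CPM in other cells. By these sums it was counted in the photosynthetic group. Without the 2 leading rows that group held 0.681% of UMIs at 2.5 mm, this gene included. The late cells were also clustered without the members' rows. In that clustering 1 cluster of 44 cells held 29 C2-high, 12 other and 2 photosynthetic cells. The rows with a symbol among its leading rows were NIP1-1, ROA2, LA1 and C2. ROA2 is on the cell-division list, and C2 also defined the C2-high class and was not left out of the clustering. Zm00001d030314 had 11948.5 CPM in this cluster and at most 1970 CPM in any other. Most of its late UMIs (66.0%) lay in set 1.4.21, number 4, at 2.5 mm, where photosynthetic cells held 10572 CPM, other cells held 18424 CPM and no C2-high sum was available. In 5 of the 6 pools with a C2-high sum the C2-high cells were above the other cells, with 413.7 to 10239 CPM against 0 to 549 CPM, and in the sixth both had 0.

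The third group, highest in other cells, was concentrated in few cells. Its 49 members peaked at 2.75 mm in 34 cases. At 1.75, 2.0 and 2.25 mm Zm00001d035791 had 629, 18.3 and 2444 CPM, and at 2.5, 2.75 and 3.0 mm it had 48.5, 11763 and 51.3 CPM. Zm00001d020970 had 528 CPM at 2.25 mm and then 2.70, 5366 and 2434 CPM. Of its 3.0 mm UMIs 84.0% came from 3 cells of a 4-cell pool (set 8.18.21, number 9), without which the level at 3.0 mm was 405.96 CPM. Leaving out single late pools moved its mean over the 3 lengths between 1060 and 4099 CPM. The levels thus alternated between lengths and did not climb. At 2.75 mm the pools held 28373 CPM (set 3.29.22, number 1), 4840 CPM (set 8.18.21, number 6) and 153.7 CPM (set 8.18.21, number 3) of Zm00001d035791. Zm00001d020970 had 12634, 2984 and 0 CPM in the same pools, and Zm00001d005581 6581, 801 and 0 CPM.

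Of all analysed cells, 36 had at least 5% of their UMIs in these 49 members, and they held 71.1% of the group's UMIs. Of these cells 27 were late, 8 came from 2 pools of 2.25 mm and 1 from a 1.75 mm pool. The late ones held 7.91% of all late UMIs and 80.7% of the group's. The largest number, 18 cells, was in the 2.75 mm pool of set 3.29.22, with a median of 16.1% of their UMIs in the group and a median depth of 2312 UMIs, against a pool median of 1221.5. The 36 cells had 33 different well numbers. In a Leiden clustering of the late cells made without the members' rows, 41 of the 49 members were highest in 1 cluster of 17 cells. That cluster held cells of 4 pools, 13 of them from that 2.75 mm pool, its median depth was 2469 UMIs, and no row with a symbol was among its leading genes. It was left unnamed. The listed tapetum genes (5 of 5) had no row in the table, and the pollen and microspore list had 3 of its 7 genes as rows, with 4 late UMIs in all, so neither cell type could be checked.

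**Figure D3:**
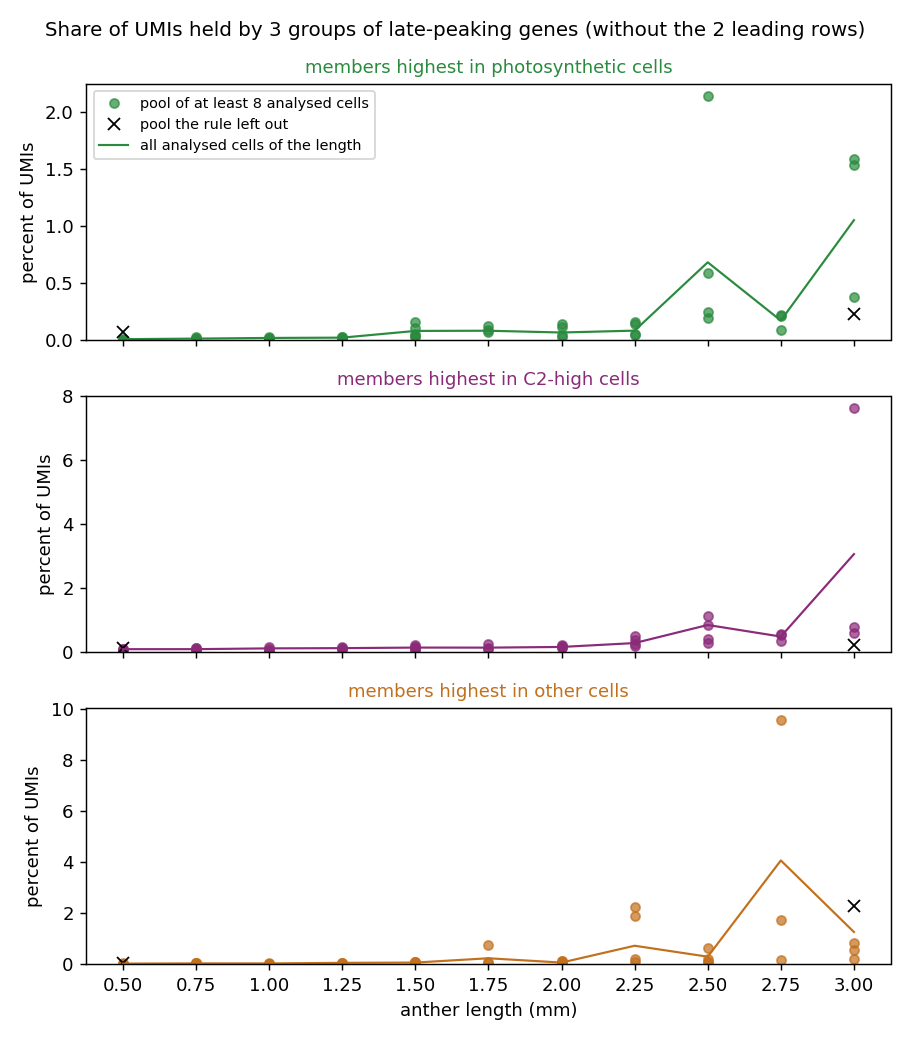
Percent of UMIs in the 3 member groups (19 members highest in photosynthetic cells without the 2 leading rows, 59 in C2-high cells, 49 in other cells) against anther length in mm; dots are pools with at least 8 analysed cells, crosses are pools that the rule left out, lines are all analysed cells of the length. The highest dot of the C2-high group is a 3.0 mm pool at 7.63%, and that of the other group a 2.75 mm pool at 9.57%. The photosynthetic group includes Zm00001d030314, which with the pool as block was lower in photosynthetic than in other cells (log2 fold change -1.79).

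Zm00001d031312 was also highest in other cells but had another distribution. It had 820 CPM at 2.25 mm and 1227, 616 and 2331 CPM at the 3 late lengths, was seen in 93 late cells of 10 pools, and was highest in a different cluster from the members above, at 9464 CPM, and next highest in another, at 7175 CPM. PPDK2, a pyruvate phosphate dikinase, was among the leading rows of both. In 9 pools the other cells held more of it than the photosynthetic cells, with 216.6 to 21034 CPM against 0 to 2512 CPM.

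**Figure D4:**
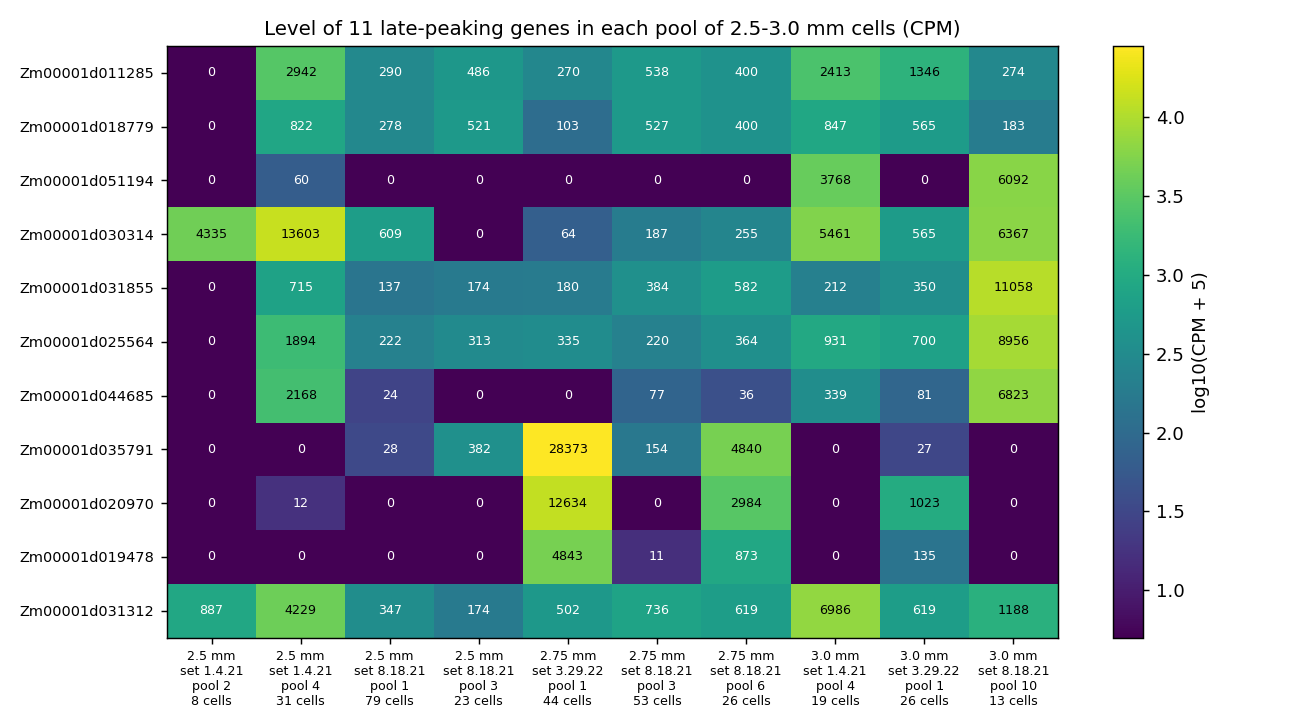
CPM of 11 members (rows) in the 10 pools of 2.5, 2.75 and 3.0 mm with at least 8 analysed cells (columns); colour is log10(CPM + 5). Zm00001d035791 reaches 28373 CPM in 1 pool of 2.75 mm and is at 0 in 4 pools, whereas Zm00001d018779 is between 103.03 and 847 CPM in 9 of the 10.

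The classes were compared in 1 edgeR quasi-likelihood fit of UMIs summed per pool and class, with the pool as block and Benjamini-Hochberg adjustment over all tested rows. A filter on low counts left 0.948% of the 17405 rows with a UMI and 9 members. Between photosynthetic and other cells 92.1% of the tested rows were called, so the call of all 9 members is near the background. Of these, 4 rose in photosynthetic cells (background 43.0%): Zm00001d011285 by a log2 fold change of 4.41 ± 0.49 (SE), Zm00001d018779 by 3.49 ± 0.50, GRMZM5G815453 by 2.79 ± 0.43 and Zm00001d000279 by 2.76 ± 0.43. The other 5 fell (background 49.1%): Zm00001d031312 by -5.28 ± 0.68, Zm00001d025564 by -2.95 ± 0.47, Zm00001d031855 by -2.74 ± 0.52, and Zm00001d017275 and Zm00001d030314 by -1.79 each. The largest adjusted p of the 9 was 0.00519.

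Between C2-high and other cells 23.6% of the tested rows were called and 4 of the 9 members. Zm00001d030314 rose by a log2 fold change of 3.36 ± 0.62, Zm00001d031855 by 2.61 ± 0.48 and Zm00001d025564 by 2.02 ± 0.45 (SE, adjusted p between 0.000109 and 0.000827, edgeR). These 3 stand beside 17.0% of the tested rows that rose. Zm00001d031312 fell by 3.52 on the log2 scale (adjusted p = 0.00064, edgeR), beside 6.67% of the tested rows that fell. For Zm00001d030314 the direction rests on the block: without it the log2 fold change was -0.95 with an adjusted p of 0.828, and the pool with most of its late UMIs has no C2-high sum. Between photosynthetic and C2-high cells 91.5% of the tested rows were called and 8 members, of which 4 were higher in photosynthetic cells (background 45.5%) and 4 lower (46.1%).

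Without the filter all members entered the class fit. In photosynthetic against other cells 15 rose and 32 fell, 11.6% and 24.8% of the members. Of the 6606 rows with at least 18 late UMIs, the least of any member, 4.84% rose and 3.09% fell, and of all 17405 rows 2.02% and 1.18%. In C2-high against other cells 22 members rose and 7 fell (17.1% and 5.43%), beside 1.62% and 0.363% of the rows with at least 18 late UMIs and 0.621% and 0.138% of all rows. Zm00001d033990 had the largest rise there, 5.43 on the log2 scale, and Zm00001d020970 the largest fall, -6.40. The members were thus called between classes more often than rows of that minimum, but they were chosen for a high level and a large contrast in these cells, and the difference in share was not tested. This fit shares its estimate of spread with many rows of few UMIs.

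Within 2.5 to 3.0 mm, the slope on length was fitted over 10 pools. Of 434 rows tested by edgeR 0.0% were called, no member among 13 was called, 15 rows and 3 members had an unadjusted p under 0.05, and DESeq2 called 1 row and no member. The slope was positive for 12 of the 13 members. It was 7.78 ± 2.35 log2 units per mm for Zm00001d031855 and 7.04 ± 2.24 for Zm00001d003379 (SE, adjusted p = 0.955 for both, edgeR). Without the filter 13 members rose (background 0.103% of 17537 rows, 0.212% of those with at least 18 late UMIs) and 4 fell (0.257% and 0.681%). Zm00001d051194 had the smallest adjusted p among them, with the pool values above. Members were chosen on the mean of these same 3 lengths, and 73 of them were highest at 3.0 mm. An excess of slopes is thus partly fixed by that choice, and the difference in share was not tested. Several risers had UMIs in the deepest 3.0 mm cell: 70 for Zm00001d028252, 69 for Zm00001d021813 and 31 for Zm00001d030316. Zm00001d051194 had 0 there.

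Cells that the rule did not use give the same measure again, from the same anthers. In the late cells under 500 UMIs (38720 UMIs in all), members without the 2 leading rows made up 0.879%, 2.14% and 3.37% of UMIs at 2.5, 2.75 and 3.0 mm, and between 0.174% and 0.734% at the 8 shorter lengths. Of the members, 79.8% were higher in these late cells than in the shorter cells under 500 UMIs, with a median ratio of 5.40, and 26 were not. Of the 6505 ID rows that reach 50 CPM at any window in the deeper cells, 39.1% were higher, with a median ratio of 0.815. The shorter cells held 132965 UMIs, so 1 UMI was 25.8 CPM in the late cells and 7.52 CPM in the shorter ones. Ratios were taken after adding 5. Several members had only 1 late UMI here, and 1 against none already gives a ratio above 5.40.

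Zm00001d030314 had 1082, 67.2 and 3769 CPM in these cells at 2.5, 2.75 and 3.0 mm, and 85.7 CPM at 2.0 mm as its only level above 0 before. Zm00001d018779 had 405.7, 268.9 and 426 CPM, against at most 98.5 CPM at the shorter lengths. Zm00001d005434 had 135.2, 134.4 and 669 CPM, against at most 98.5 CPM. In 7 of the 120 members with a UMI in these cells all 3 late lengths were above all 8 shorter ones, beside 0.535% of 16630 rows with a UMI. Besides Zm00001d018779 and Zm00001d005434 these were Zm00001d013991, Zm00001d015459, Zm00001d021026, Zm00001d036918 and Zm00001d040697. Few UMIs lie behind this. At 2.5, 2.75 and 3.0 mm Zm00001d036918 had 1, 1 and 1 UMIs, and Zm00001d015459 had 1, 2 and 2. Zm00001d013991 had 1, 7 and 1, Zm00001d040697 3, 1 and 2, and Zm00001d021026 2, 4 and 3. Zm00001d018779 had 3, 4 and 7, and Zm00001d005434 1, 2 and 11. The 16630 rows include rows with too few UMIs to be seen at all 3 late lengths, so the shares are not alike. Zm00001d051194 had 46 UMIs at 3.0 mm and none at the other 10 lengths, and Zm00001d035791 had 20, 64 and 3 UMIs at 2.25, 2.75 and 3.0 mm and none at the rest.

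The edgeR test of these cells (3 late against 8 shorter length sums) kept 1.53% of the 13034 rows with a UMI and 3 members after the filter, and 0.0% of rows and no member were called. The 3 members, Zm00001d031312, GRMZM5G815453 and Zm00001d000279, had log2 fold changes of 2.85 ± 0.81, 1.54 ± 0.56 and 1.51 ± 0.55 (SE), with adjusted p between 0.128 and 0.155. At an unadjusted p under 0.05 there were 32 rows and all 3 members, and DESeq2 called 2 rows and no member. Without the filter 12 members were called higher and none lower, beside 0.0997% of 13034 rows higher, with log2 fold changes between 2.72 for Zm00001d031312 and 7.01 for Zm00001d051194. The UMIs behind the last value all came from 1 length.

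**Figure D5:**
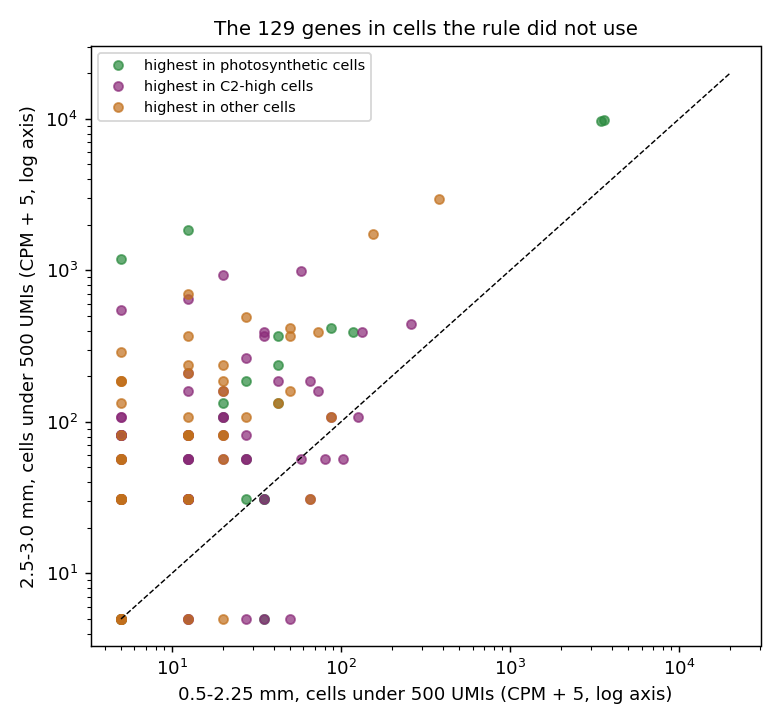
Level of all members in late cells under 500 UMIs (vertical, CPM + 5, log axis) against cells under 500 UMIs of 0.5-2.25 mm (horizontal, same scale), coloured by class; the dashed line marks equal levels. Of the members, 79.8% were higher in the late cells.

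Apart from the 2 leading rows, the 3.0 mm pool that the rule left out (set 3.29.22, number 2, with 27 cells and 35550 UMIs) carried members of the third group mainly. That group held 2.30% of its UMIs, the C2-high group 0.208% and the photosynthetic group without the leading rows 0.231%. Zm00001d020970 had 3994 CPM there, Zm00001d048337 3910 CPM and Zm00001d004437 1688 CPM, against 263.9, 46.4 and 5.06 CPM in their highest shorter window. Zm00001d051194, Zm00001d044685 and Zm00001d030314 had 0. The leading rows Zm00001d000279 and GRMZM5G815453 had 13699 and 13671 CPM, against 4476 and 4370 CPM in their highest shorter window. In this pool 65 members (50.4%) were above their highest shorter window, beside 14.7% of the 6505 ID rows.

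Sets carried the late peak unequally. Computed within a set, 2.5-3.0 mm was the highest window for 89.1% of members in set 8.18.21, for 79.8% in set 3.29.22 (3 windows only) and for 55.8% in set 1.4.21. It was at least 2.5 times the next window for 92, 85 and 51 members. The rule chose the members from these same cells, so a late peak within a set is partly fixed by that choice. The share of all ID rows highest at 2.5-3.0 mm within a set was not computed, and the values are a description. In 71 members over 50% of the late UMIs came from 1 pool: for 27 the 2.75 mm pool of set 3.29.22, for 21 the 2.5 mm pool number 1 of set 8.18.21, and for 14 the 3.0 mm pool number 10 of set 8.18.21. Length and set are not separate in these pools, and the part of either in a member's level was not tested.

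By ID number, 17 of the members with a Zm00001d ID were within 5 of another member. The share, 13.3%, was between those of the genes peaking at 0.5-1.0 mm (6.32%), 1.25-1.75 mm (7.14%) and 2.0-2.25 mm (18.3%). Zm00001d044401 and Zm00001d044402 had 56 and 57 UMIs, equal in 22 of the 23 cells with either, so they too may share reads and are uncertain. Zm00001d031854 and Zm00001d031855 were both highest in C2-high cells and correlated over cells with r = 0.895. The pair Zm00001d048336 and Zm00001d048337, both highest in other cells, had r = 0.84. By the nearest row over cells, Zm00001d035791 was most like Zm00001d048014 (r = 0.965) and Zm00001d031855 most like Zm00001d021813 (r = 0.981), across 1589 cells that share depth and pool.

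Of the rows with a gene symbol (1.80% of all rows), 3 passed the same limits, all of photosynthesis. RBCS had 1283 CPM at 2.5-3.0 mm, against 431 CPM at 2.0-2.25 mm, PSAH 389.3 against 148.1 CPM, and RCA1, the activase of Rubisco, 68.4 against 13.5 CPM. CAB1 and PSBQ1 missed the fold limit with a ratio of 1.73 each, and C2 with 2.34. None of the 16 plastid-encoded, 10 aquaporin and 5 cell-division rows passed.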

How the data were processed

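The deposited file is 1 table of UMI counts per gene row and cell. Per the submitters' processing notes, reads were aligned with HISAT2 to B73 RefGen_v4; for the version and counting settings the sources used here give nothing, and near-identical copies may share counts. Every table column mapped to a sample. Cells under 500 UMIs, the MiSeq set, set 8.18.21 number 7 at 0.5 mm and set 3.29.22 number 2 at 3.0 mm were left out by the rule, which found 129 members.

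Members, gene lists and tests were chosen with earlier results of these data known, and the genes named are the 15 highest, the 10 with the largest ratio, up to 5 called each way per test and those at the limits; others were named after their values were seen. Counts were summed per length, per pool (at least 8 cells) or per pool and class (at least 3 cells), and fitted with edgeR 4.0.16 (TMM, filterByExpr, quasi-likelihood F-test, false discovery rate 0.05; R 4.3.3), tested on simulated data first. Alternatives included DESeq2 1.42.0, no filter and leaving out pools. Late cells were clustered with scanpy 1.11.5 (2000 variable rows, 15 components, 15 neighbours, resolution 1). Intervals and floors (3 counts) cover counting error only. Classes of 1 pool share set, number and length, so the pool is the block. The RefSeq gene table matched 0 of 21774 IDs.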

Additional observations from a re-analysis of the deposited data

Results flagged for a closer look

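Of all 22 groups of pool values examined, 6 held 1 pool far from the others. Each of these 6 was 1 gene over the 4 pools of 2.5 mm. A chance rate of about 1 in 20 is no fair measure here, because members were chosen for a high level at these lengths. Flagged genes also vary together over cells, with r = 0.916 for Zm00001d044685 and Zm00001d025564. For Zm00001d048337 and Zm00001d020970 r was 0.887. The pool of set 1.4.21, number 4, stood above the others for 5 genes, with 2168 CPM of Zm00001d044685, 1894 CPM of Zm00001d025564, 166.8 CPM of Zm00001d048337, 59.6 CPM of Zm00001d051194 and 11.9 CPM of Zm00001d020970. The pool of set 8.18.21, number 3, stood above the others for Zm00001d035791 with 382.04 CPM, or 11 UMIs. Several of these values are few counts: 14 UMIs for Zm00001d048337, 5 UMIs in 1 cell for Zm00001d051194 and 1 UMI for Zm00001d020970, with none of any of the 3 in the other 2.5 mm pools. The number of such groups therefore says little.

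Pools outside the rule also held member UMIs. Without the 2 leading rows, members made up 2.74% of UMIs in the left-out 3.0 mm pool. All cells of a length below 2.5 mm together held 0.125% to 1.09%. Single pools of 2.25 mm held up to 2.77%, so pool against pool the left-out pool was not above all shorter ones. Members made up 0.246% in the left-out 0.5 mm pool, against 0.125% in the 0.5 mm cells analysed. In that 0.5 mm pool 34.1% of members and 42.4% of the ID rows at 50 CPM were above their level in the other 0.5-1.0 mm cells.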

How the results depend on the processing

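The rule found 0.592% of the gene-ID rows. It found 0.964% (210 members) at 2 times the next window, 0.358% (78 members) at 100 CPM, 1.07% with no pool left out, 0.928% without set 8.18.21 (77 members shared), and between 0.524% and 0.955% when 1 length or 1 late pool was left out in turn. Similar sizes hid turnover: without 3.0 mm the rule lost 61 members and gained 56, and with equal weight per cell it lost 58 and gained 21 (0.423%). Leaving out late pools and the deepest 3.0 mm cell were chosen after seeing the data, as was reading the limit of 50 before adding 5, which loses 4 members. When 1 pool or length was left out, called members in the filtered fits ran from 6 of 6 tested to 15 of 15 for photosynthetic against other cells. They ran from 2 of 6 to 9 of 15 for C2-high against other cells, and from 5 of 6 to 13 of 15 for photosynthetic against C2-high cells. For cells under 500 UMIs they numbered 0 to 1 of 4, and for the slope 0 of 13 to 18. The number of members tested thus moved with the filter. Of all tested rows, 84.2% to 91.8%, 21.4% to 29.3%, 82.1% to 94.8%, 0% to 0.746% and 0% were called in these fits. In the class comparisons the highest counts came without set 8.18.21 number 3 at 2.5 mm and the lowest without set 1.4.21 number 4 at 2.5 mm. In the same order no filter gave 47, 29, 43, 12 and 17 members, beside 3.2%, 0.758%, 2.44%, 0.107% and 0.359% of all rows. Cells under 400 UMIs gave 1 of 3 members tested, beside 1.71% of rows. Within set 8.18.21 alone the 3 class comparisons gave 2, 0 and 2 of 2 members tested, beside 80.2%, 24% and 88.4% of rows. Sums of at least 5 cells gave 30, 5 and 19 of 35 members tested, beside 87.3%, 7.74% and 65.3% of rows.

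With set as replicate block 2 of 2 members tested were called in cells under 500 UMIs, where 9 of only 31 rows were called (29%), and 1 of 41 for the slope, where it was the only row called of 696. With no replicate block the class comparisons called 8, 2 and 7 members, beside 87.9%, 10.3% and 83.6% of rows, and Zm00001d030314 in C2-high against other cells turned to -0.95. The causes were not tested.

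Precision is limited by UMIs: 53 members were under 100 CPM, where the 97390 UMIs of 3.0 mm hold few counts, and no sum stands for a separate plant.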
